A study of Mus musculus with 42 samples.

Results

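DNA methylation in the mouse embryo is written, copied and removed by a small group of proteins, and 10 genes that encode them were followed here in allele-resolved Smart-seq2 data. The genes were taken by name: Dnmt1 and Uhrf1 (maintenance), Dnmt3a, Dnmt3b and Dnmt3l (de novo methylation), Tet1, Tet2 and Tet3 (oxidation), and Zfp57 and Dppa3 (protection of methylated regions). They are 10 of the 24083 genes in the table of developmental stages and 10 of the 23986 genes in the table of control and XRRa-deleted morulae, and all are autosomal. All embryos came from C57BL/6N mothers and PWK/PhJ fathers, so that paternal reads carry PWK/PhJ variants. The stage samples were wild type and female: 8-cell embryos (3 samples), morulae (3), the E3.5 blastocyst as inner cell mass (ICM, 2) and trophectoderm (TE, 3), the E6.5 embryo as epiblast (1), visceral endoderm (VE, 3) and extraembryonic ectoderm (ExE, 2), and E9.5 yolk sac (1). The morula table held female Xp XRRa KO morulae (4 samples), in which the region XRRa is deleted on the paternal X chromosome, and wild-type control morulae, female (3) and male (4). The 13 remaining samples of the 42 were maternal Eed-null embryos with a table of X-linked genes only and were not used here.

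Methyl groups on CpG dinucleotides are copied onto the new DNA strand after replication by Dnmt1, which Uhrf1 recruits to hemimethylated sites. New methylation is placed by the enzymes Dnmt3a and Dnmt3b, helped by Dnmt3l, a relative without catalytic activity. The Tet enzymes oxidise 5-methylcytosine, which leads to its loss, while Zfp57 holds methylation at imprinted regions and Dppa3 (Stella) shields the maternal genome from oxidation in the zygote and can hold Uhrf1 away from chromatin. In mouse development methylation is low in the blastocyst and is placed again around implantation, less fully in extraembryonic tissues than in the epiblast.

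The values are FPKM (fragments per kilobase of transcript scaled to library size), listed by the authors for each allele in 1 column per group that pools its samples. No spread between samples could be computed, and no difference below was tested. In place of a test, a difference is called past 2-fold where 1 of the columns reached 5 FPKM and the ratio on FPKM plus 1 was at least 2, and the share of all genes at 5 FPKM that met the same rule is given beside it. Log2 ratios are on FPKM plus 1. Under this rule a gene that reached 5 FPKM in only 1 of the columns could be called only as higher there. A level is the summed FPKM of both alleles. The paternal share is the paternal part of that level, given where the level was at least 1 FPKM. How reads were assigned to alleles is not given. If allelic FPKM count only reads that tell the strains apart, levels of different genes also depend on how many variants each transcript holds. In bulk columns fewer cells of a type and less RNA per cell cannot be told apart. Read depth is unknown, since the tables gave no counts.

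The summed markers of each E6.5 tissue were highest among the 3 E6.5 columns in the tissue so labelled, with 2693 FPKM of VE markers in VE, 297 FPKM of ExE markers in ExE and 497 FPKM of epiblast markers in epiblast. VE markers also summed to 233 FPKM in ExE, and epiblast markers to 180 FPKM in VE and 62.6 FPKM in ExE. Single epiblast markers did not all follow. Fgf5 had 91.9 FPKM in VE against 60.8 FPKM in epiblast, and Pou3f1 14.0 FPKM in ExE against 16.6 FPKM in epiblast. Otx2 had 87.5 FPKM in VE against 106 FPKM in epiblast. The VE sum came almost wholly from Fgf5 and Otx2. Pou3f1 (0.0761 FPKM), Slc7a3 (0.189 FPKM) and Tdgf1 (0.156 FPKM) were under 1 FPKM in VE. TE markers summed to 664 FPKM in VE and 586 FPKM in ExE. In VE these were almost all Krt8 (287 FPKM), Krt18 (316 FPKM) and Eomes (59.2 FPKM), with Cdx2, Gata3 and Tfap2c under 1 FPKM. ExE had 11.8 FPKM of Cdx2, 18.2 FPKM of Gata3 and 66.6 FPKM of Tfap2c, beside 149 FPKM of Krt8, 279 FPKM of Krt18 and 61.0 FPKM of Eomes. At E3.5 TE markers summed to 1225 FPKM in the ICM and 3692 FPKM in TE. Their part in the results was not tested. A value of 0 can be a failed estimate, since between 0 and 4 of 11 housekeeping genes were listed at 0 in each stage column to E6.5, among them Ppia and Tuba1b. The single yolk sac sample was sparse: 4163 genes reached 1 FPKM there, against 7178 to 9164 in the other stage columns, and 7 of the 11 housekeeping genes were at 0.

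Promoter sequences of 9 of the 10 genes were found in RefSeq (build GRCm38.p6, 250 bases before to 50 after each annotated start), and Dppa3 had no entry. The files themselves were made on mm9, so these windows describe the genes and not the deposited coordinates. Dnmt3b and Dnmt3l are shown first because they led the Dnmt3 family at different stages. Capitals mark CpG dinucleotides in the window of Dnmt3b at chr2:153649199-153649498 (plus strand) and in that of the first Dnmt3l start at chr10:78042037-78042336 (plus strand).
Dnmt3b: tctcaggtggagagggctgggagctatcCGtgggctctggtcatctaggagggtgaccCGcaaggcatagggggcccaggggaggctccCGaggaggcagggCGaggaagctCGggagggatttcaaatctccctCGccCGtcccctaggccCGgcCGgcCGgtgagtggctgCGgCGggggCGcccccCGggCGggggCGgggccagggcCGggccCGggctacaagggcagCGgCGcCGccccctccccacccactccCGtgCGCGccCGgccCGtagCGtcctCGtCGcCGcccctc
Dnmt3l: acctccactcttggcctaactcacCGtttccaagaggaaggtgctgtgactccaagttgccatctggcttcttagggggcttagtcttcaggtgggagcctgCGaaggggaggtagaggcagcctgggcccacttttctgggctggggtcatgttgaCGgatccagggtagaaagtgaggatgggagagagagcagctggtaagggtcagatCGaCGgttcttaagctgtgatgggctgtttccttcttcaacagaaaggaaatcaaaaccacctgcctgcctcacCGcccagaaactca
The Dnmt3b window held 30 CpG dinucleotides, a number that 11.7% of all 32851 mouse windows reached, and the Dnmt3l window held 6, which 56.4% reached. The median window held 7. The other 2 Dnmt3l starts held 4 and 3, whereas the Dnmt3a starts held 46, 47 and 18 and the single Tet2 start held 57, which 0.152% of windows reached.

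Dnmt1 and Uhrf1 are shown next as the maintenance pair. E2F factors drive genes of DNA replication, and 2 strings that match their consensus, TTTCGCGC and TTTGGCGC, were searched on both strands. Capitals mark matches in the window of the second Uhrf1 start at chr17:56304063-56304362 (plus strand) and of the third Dnmt1 start at chr9:20952574-20952873 (minus strand).
Uhrf1: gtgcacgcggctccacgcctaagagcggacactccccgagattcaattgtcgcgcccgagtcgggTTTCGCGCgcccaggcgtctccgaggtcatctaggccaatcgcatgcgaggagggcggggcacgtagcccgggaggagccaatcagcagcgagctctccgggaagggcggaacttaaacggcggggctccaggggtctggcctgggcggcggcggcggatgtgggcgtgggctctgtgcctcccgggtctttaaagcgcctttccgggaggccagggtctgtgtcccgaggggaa
Dnmt1: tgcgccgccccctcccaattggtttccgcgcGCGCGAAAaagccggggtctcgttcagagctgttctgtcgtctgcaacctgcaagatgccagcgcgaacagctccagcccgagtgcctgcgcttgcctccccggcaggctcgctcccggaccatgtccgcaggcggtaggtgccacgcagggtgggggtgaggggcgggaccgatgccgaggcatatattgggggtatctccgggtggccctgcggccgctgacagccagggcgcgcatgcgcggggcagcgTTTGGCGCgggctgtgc
The Uhrf1 window held 1 match and the Dnmt1 window held 2, and each held 33 CpG dinucleotides. Of all 32851 windows 0.813% held a match. The remaining starts of Dnmt1 and Uhrf1, and all starts of the other 7 genes with an entry, held none. A match is a string of letters and not a measured binding site.

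The maintenance genes followed different courses. Dnmt1 had 1.53 FPKM at the 8-cell stage, 4.32 in morulae, 5.90 in ICM, 3.51 in TE, 9.93 in epiblast, 13.2 in VE and 15.5 in ExE. All E6.5 tissues lay above all earlier stages. Uhrf1 had 0.890 FPKM at the 8-cell stage, 4.64 in morulae, 69.7 in ICM, 11.8 in TE, 33.2 in epiblast, 28.9 in VE and 64.0 in ExE. Its highest columns were thus ICM and ExE, which differed 1.09-fold.

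Dnmt1 was past 2-fold higher in ExE than in TE (log2 ratio 1.87) and in VE than in ICM (1.04). Uhrf1 was past 2-fold higher in ICM than in morula (3.65), in ICM than in TE (2.47) and in ExE than in TE (2.35). It was lower in epiblast than in ICM by a log2 ratio of -1.05, which came to -0.79 once ratios were centred on the median of all genes. Dnmt1 in yolk sac was listed at 0 and Uhrf1 there at 15.9 FPKM.

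Within the Dnmt3 family the leading gene differed between the stages. Dnmt3l had 18.1 FPKM at the 8-cell stage, 31.2 in morulae, 51.8 in ICM, 69.8 in TE, 12.2 in epiblast, 0.649 in VE and 35.6 in ExE. The highest column was TE and the lowest VE. Dnmt3b had 4.14 FPKM at the 8-cell stage, 15.0 in morulae, 20.7 in ICM, 26.7 in TE, 517 in epiblast, 80.9 in VE and 191 in ExE. Every E6.5 tissue was therefore above every earlier column, and the epiblast was 125-fold above the 8-cell column.

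Dnmt3a stood out in 1 column. It had 1.89 FPKM at the 8-cell stage, 1.70 in morulae, 2.1 in ICM, 3.16 in TE, 46.2 in epiblast, 4.48 in VE and 4.18 in ExE. The epiblast value rests on a single sample and was 10.3-fold above that of VE, the next column. Against ICM, the epiblast was higher by a log2 ratio of 3.93 for Dnmt3a and 4.57 for Dnmt3b, and lower by -2.00 for Dnmt3l.

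As percent of the family's summed FPKM, Dnmt3l made up 75% at the 8-cell stage, 65.1% in morulae, 69.4% in ICM and 70.1% in TE. Dnmt3b made up 89.9% in epiblast, 94.0% in VE and 82.8% in ExE. ExE kept a larger Dnmt3l fraction (15.4%) than the other E6.5 tissues. With maternal FPKM alone Dnmt3l still led at the 8-cell stage (65.1%) and in TE (60.7%). Dnmt3b then led in stage-table morulae (10.3 against 6.71 FPKM for Dnmt3l) and, almost level, in ICM (13.5 against 13.3 FPKM), so that it led in 5 stage columns in place of 3. In the separate morula table Dnmt3l led on the maternal allele too, with 78.0% in KO females, 83.3% in control females and 80.3% in control males. Reads may be shared with copies that the GENCODE M21 annotation names and the stage table did not list (Dnmt3c, Dnmt3a-ps1, Dnmt3l-ps1), and the libraries do not mark strand, so antisense transcripts at Dnmt3a and Dnmt3b cannot be told apart.

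**Figure D1:**
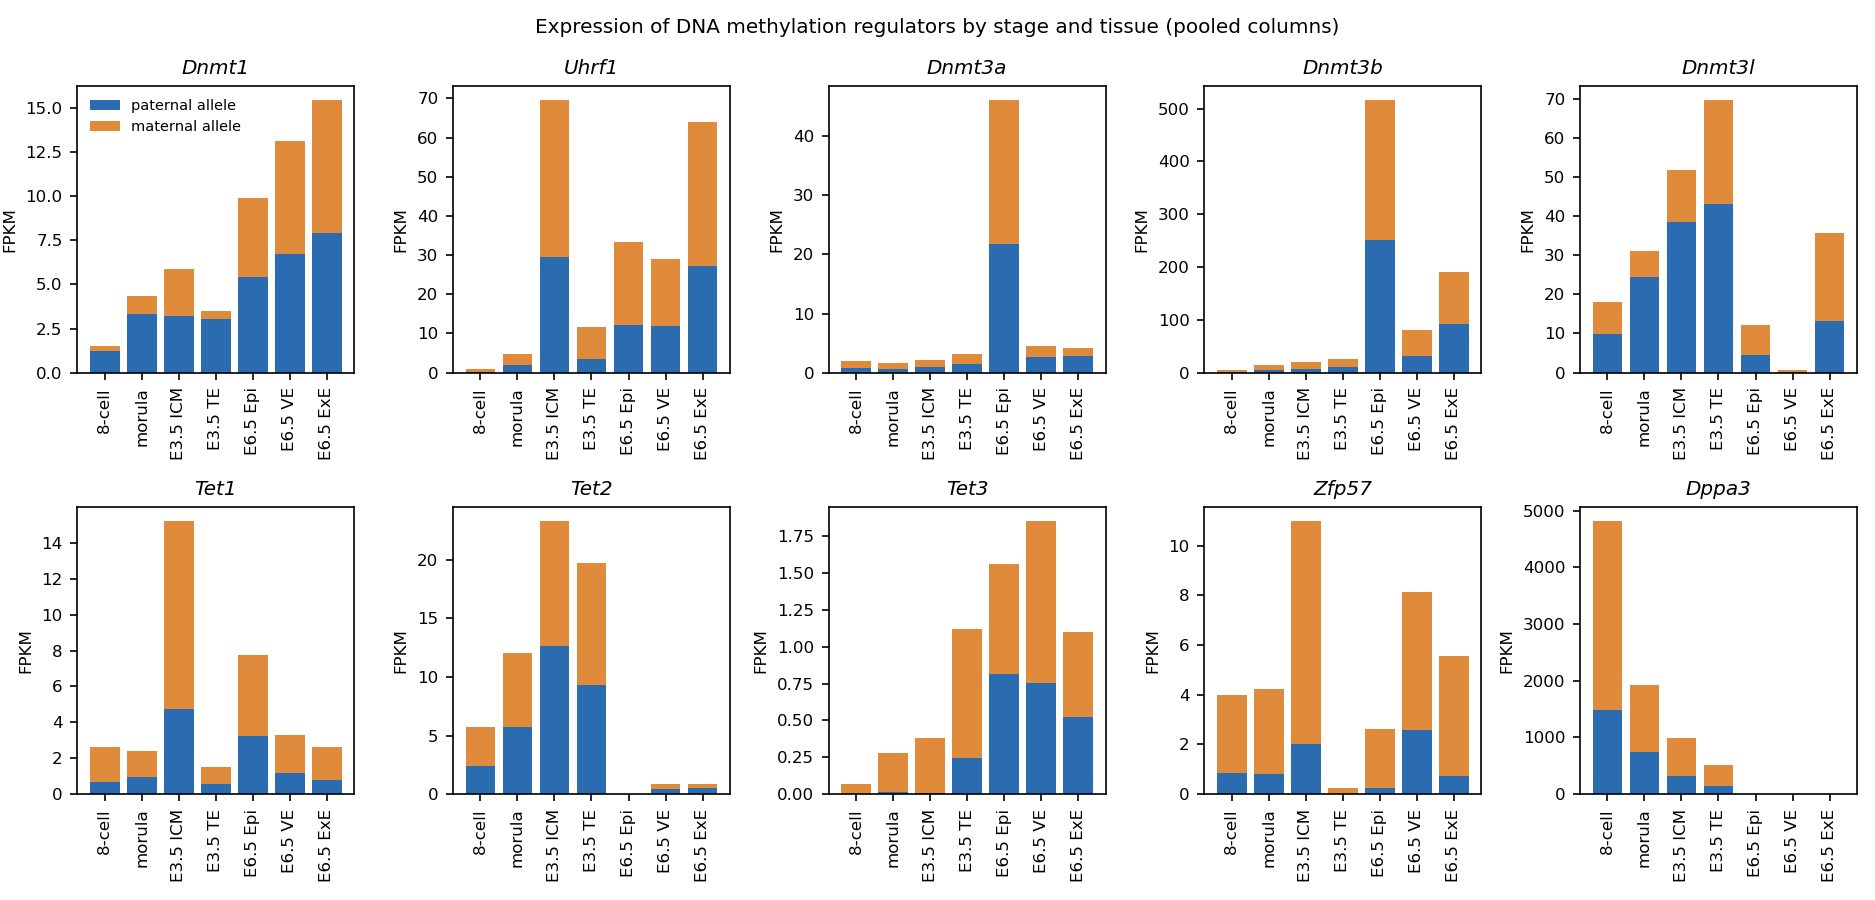
FPKM of the 10 genes by stage and tissue (x axis), as bars stacked from the paternal allele (bottom) and the maternal allele (top), 1 pooled column per bar and a separate y axis per gene, each from 0. Dnmt3b reached 517 FPKM in epiblast, Dnmt3l 69.8 FPKM in TE and Dppa3 4818 FPKM at the 8-cell stage.

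The Tet genes also changed places. Tet2 had 5.75 FPKM at the 8-cell stage, 12.1 in morulae, 23.3 in ICM, 19.7 in TE, 0.0416 in epiblast, 0.901 in VE and 0.823 in ExE. It was thus above 5 FPKM in every column before implantation and under 1 FPKM in every E6.5 tissue. Tet1 had 2.63 FPKM at the 8-cell stage, 2.41 in morulae, 15.2 in ICM, 1.53 in TE, 7.78 in epiblast, 3.31 in VE and 2.61 in ExE. ICM and epiblast were its highest columns.

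Tet3, best known as the oocyte's enzyme acting in the zygote, had between 0.0660 FPKM at the 8-cell stage and 1.86 FPKM in VE and never reached 5 FPKM. Tet1 was past 2-fold higher in ICM than in TE (log2 ratio 2.68), while Tet2 differed by 0.23 between them. Tet2 was lower in epiblast than in ICM (-4.55), in VE than in ICM (-3.68) and in ExE than in TE (-3.51). Of the family's summed FPKM, Tet2 made up 68.0% at the 8-cell stage, 81.8% in morulae, 59.9% in ICM and 88.2% in TE. Tet1 made up 82.9% in epiblast, 54.5% in VE and 57.6% in ExE, where the family sums were small. With maternal FPKM alone Tet2 and Tet1 were almost level in ICM (10.7 against 10.5 FPKM).

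**Figure D2:**
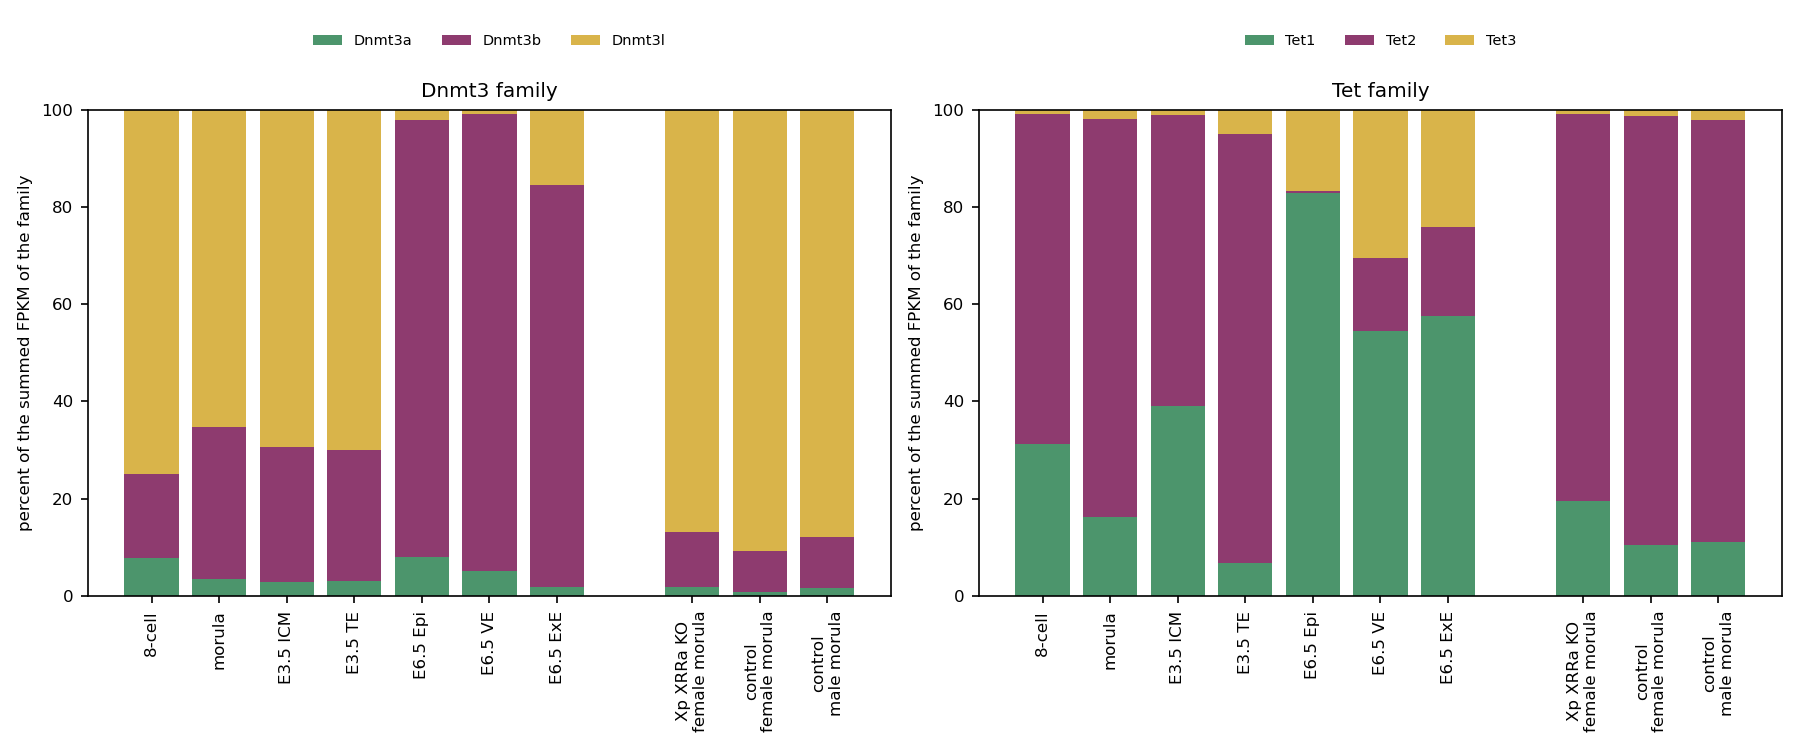
Percent of the summed FPKM of the Dnmt3 family (left) and the Tet family (right) contributed by each gene, in stage columns and in the separately normalized morula table. Dnmt3l made up 70.1% of its family in TE and Dnmt3b 89.9% in epiblast, and Tet2 made up 88.2% in TE and Tet1 82.9% in epiblast.

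Of the protection genes, Dppa3 had 4818 FPKM at the 8-cell stage, 1920 in morulae, 992 in ICM, 508 in TE, 6.17 in epiblast, 6.21 in VE and 0.668 in ExE. Each E6.5 tissue was far under each earlier column, and this was the widest range among the 10 genes. Zfp57 had 3.97 FPKM at the 8-cell stage, 4.21 in morulae, 11 in ICM, 0.237 in TE, 2.62 in epiblast, 8.14 in VE and 5.54 in ExE. It was lowest in TE, and the ICM was higher than TE by a log2 ratio of 3.28. The ExE of E6.5 was higher than TE by 2.40 and VE higher than epiblast by 1.34. Dppa3-ps, a pseudogene that GENCODE M21 names, may share reads with Dppa3.

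Counted by comparison, 2 of the 4 members at 5 FPKM were past 2-fold in morula against 8-cell (Dnmt3b higher, Dppa3 lower), beside 38.1% of all genes at 5 FPKM (31.9% higher, 6.21% lower). In ICM against morula 3 of 8 were higher (Uhrf1, Tet1, Zfp57) and none lower, beside 28.6% of all genes (18.2% higher, 10.4% lower), and centring added Dppa3 as lower (-1.09). In TE against morula 3 of 5 were past 2-fold, Uhrf1 and Dnmt3l higher and Dppa3 lower, beside 39.3% (22.0% higher, 17.3% lower). ICM against TE gave the same 3 genes as ICM against morula, of 8 at 5 FPKM, all higher, beside 24.8% (13% higher, 11.8% lower); these comparisons share the ICM column.

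At implantation 7 of the 9 members at 5 FPKM were past 2-fold in epiblast against ICM: Dnmt3a and Dnmt3b were higher and Uhrf1, Dnmt3l, Tet2, Zfp57 and Dppa3 lower, beside 42.5% of all genes (14.2% higher, 28.3% lower). VE against ICM gave 7 of 8, with Dnmt1 and Dnmt3b higher and Uhrf1, Dnmt3l, Tet1, Tet2 and Dppa3 lower, beside 47.5% (16.6% higher, 30.9% lower). Centring ended the call of Uhrf1 here as well (-1.24 before and -0.77 after). In ExE against TE 6 of 7 were past 2-fold, Dnmt1, Uhrf1, Dnmt3b and Zfp57 higher and Tet2 and Dppa3 lower, beside 39.4% (22.6% higher, 16.8% lower), and centring added Dnmt3l as lower (-1.17). Dnmt3b was higher and Tet2 and Dppa3 were lower in all of these 3 comparisons.

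Among the E6.5 tissues, 5 of 8 members at 5 FPKM differed in ExE against epiblast, with more Dnmt3l and less Dnmt3a, Dnmt3b, Tet1 and Dppa3 in ExE, beside 26.3% of all genes past 2-fold (20.0% higher, 6.25% lower). VE against epiblast also gave 5 of 8, with more Zfp57 and less Dnmt3a, Dnmt3b, Dnmt3l and Tet1 in VE, beside 36.4% (17.7% higher, 18.7% lower). The Tet1 difference was no longer past 2-fold after centring (-1.03 before and -0.84 after). VE against ExE gave 1 higher gene (Dppa3) and 3 lower ones (Uhrf1, Dnmt3b, Dnmt3l) of 6, beside 36.4% (9.77% higher, 26.6% lower). Centring ended the calls of Uhrf1 (-0.63) and Dnmt3b (-0.74) there. In the sparse yolk sac against VE, 4 of 6 members were lower (Dnmt1, Dnmt3b, Zfp57, Dppa3), beside 68.6% of all genes (8.48% higher, 60.2% lower), and Dnmt1 and Dppa3 were listed at 0 in yolk sac. The median gene was at -1.99 in that comparison. After centring on it only Dnmt1 (-1.84) and Dnmt3b (-1.64) were still lower, and Uhrf1 (1.16) and Tet1 (2.66) were higher.

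**Figure D3:**
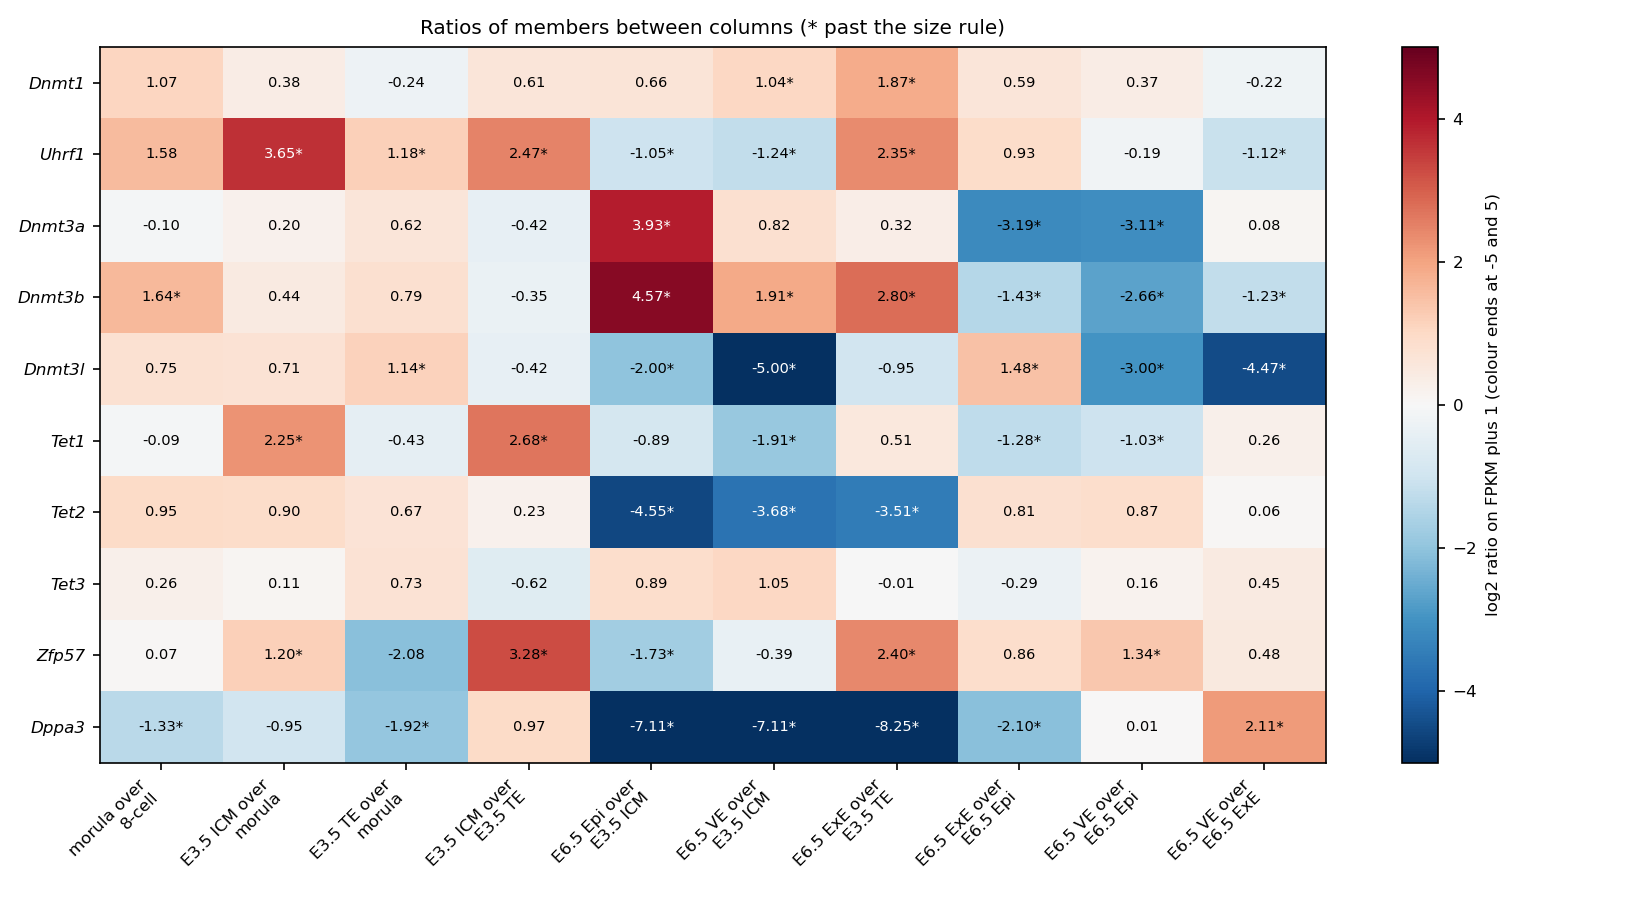
Log2 ratios on FPKM plus 1 of the 10 genes (rows) in 10 comparisons between stage columns (columns), with a star where the ratio is past 2-fold at 5 FPKM or more; the colour scale ends at -5 and 5. Dppa3 has the lowest ratios, -7.11 in epiblast and VE against ICM and -8.25 in ExE against TE.

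The other genes of these pathways were read from lists chosen with earlier results known. In epiblast against ICM, beside 14.2% of all genes higher and 28.3% lower, 4 of 9 maintenance partners were higher and none lower, among them Uhrf2 (log2 ratio 2.30), Smchd1 (1.82), Hells (1.54) and the replication clamp Pcna (1.48). Of 7 regulators of de novo methylation at 5 FPKM, 1 was higher, the histone demethylase Kdm1a (1.75), and 3 lower, Dppa2 (-4.14), Dppa4 (-1.28) and Prdm14, which was listed at 0 in epiblast against 7.11 FPKM in ICM. Uhrf1 was lower in this comparison (-1.05), though not past 2-fold after centring (-0.79), and its relative Uhrf2 was higher.

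Oxidation is followed by base excision repair. Of 11 repair and Tet-partner genes at 5 FPKM, 1 was higher in epiblast than in ICM, the endonuclease Apex1 (1.29), and 3 lower, shares close to those of all genes just given, among them Idh1 (-3.09), which makes the Tet cofactor 2-oxoglutarate, and Gadd45g (-2.26). Germline genes that promoter methylation keeps silent gave 0 higher and 2 lower of 5 at 5 FPKM, Tex19.1 with 8.15 FPKM in epiblast against 119 FPKM in ICM and Stk31 with 1.52 against 16.6. Of 16 such genes on the list, 11 were thus under 5 FPKM in both columns.

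Beside 22.6% of all genes higher and 16.8% lower, ExE against TE gave 5 of 9 maintenance partners higher and none lower, led by Uhrf2 (3.19), Hells (1.69), Pcna (1.62) and Smchd1 (1.20). Of 7 enzymes of the methyl donor cycle at 5 FPKM, 4 were higher, among them Shmt2 (1.98), Ahcy (1.94) and Mat2a (1.67). Of 5 germline genes at 5 FPKM, 4 were lower, Asz1 (-2.58), Dpep3 (-2.56), Sycp3 (-2.10) and Stk31 (-1.23). All 4 reached 5 FPKM only in TE, so they could be called only as lower in ExE. Tex19.1 was the exception: it had 237 FPKM in ExE, against 8.15 FPKM in epiblast and 25.2 FPKM in VE. The whole germline list summed to 175 FPKM in TE, with 130 FPKM from Tex19.1, and to 253 FPKM in ExE.

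Earlier, beside 13% of all genes higher and 11.8% lower, ICM against TE gave 3 of 7 de novo regulators higher and none lower, Prdm14 (2.81), Dppa4 (2.76) and Dppa2 (2.42), beside Tet1 and Zfp57. The base excision list gave 3 of 12 higher, Parp1 (1.69), Apex1 (1.65) and Idh1 (1.56). The thymine glycosylase Tdg, which removes oxidised methylcytosine, had 20.0 FPKM in ICM and 26.4 FPKM in TE, against 0.757 FPKM in stage-table morulae. In the separately normalized morula table it had 5.84 FPKM in KO females, 4.27 FPKM in control females and 10.9 FPKM in control males, so the size of its difference from morulae depends on that low stage-table value. Within the stage table Tdg and Tet1 were both past 2-fold higher in ICM than in morula, and in TE against morula Tdg was (3.96) while Tet1 was not (-0.43).

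In morula against 8-cell, beside 31.9% of all genes higher and 6.21% lower, 5 of 9 methyl donor enzymes were higher and 1 lower, among them Ahcy (2.45), which clears the product that inhibits methyltransferases, Mthfd1 (1.89) and Shmt2 (1.78). Of 8 repair genes at 5 FPKM, 5 were higher, led by Gadd45b (2.47), Xrcc1 (1.84), Lig3 (1.60) and Parp1 (1.5). Of 10 germline genes 1 was higher, Tex19.1 (2.59), and 4 lower, among them Slc25a31 (-2.44), Brdt (-2.30) and Sycp1 (-1.81). Slc25a31, Brdt and Sycp1 reached 5 FPKM only at the 8-cell stage, so they could be called only as lower in morula.

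The genes whose course over the 8 stage columns was most like each member were found among 8363 genes by the mean absolute difference of centred log2 values. The closest to Dnmt3a were Tubb4a (0.20), Armcx2 (0.24) and Sall2 (0.24), each highest in epiblast. Those closest to Dnmt1 were Map1s (0.21), Dmwd (0.23) and Nudt8 (0.23). The 8 columns include the sparse yolk sac, in which Dnmt1 and all of these matches were listed at 0. Tet2 was nearest to Acadl, Mapt and Glb1 (0.35 each), Tet1 to Zfp959, Mtmr7 and Slc1a3 (0.39 each), and Zfp57 to Zfp598 (0.30), Snx10 (0.36) and Hsd17b7 (0.36). Zfp598 was listed at 0 in TE, the column in which Zfp57 was lowest.

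Looser matches were found for the remaining genes. Dnmt3l was nearest to Insig1 (0.43), H2-D1 (0.52) and Zswim1 (0.57), and Uhrf1 to Mtap (0.50), Aldh9a1 (0.60) and Glud1 (0.60). Dnmt3b was nearest to Tmem98 (0.52), Ift27 (0.54) and Btg3 (0.57), which reached 22.6, 24.2 and 51.4 FPKM in epiblast against 517 FPKM for Dnmt3b. Dppa3 had the loosest matches, Trim43a (0.89), Bhmt (1.04) and Pramel6 (1.06), and Tet3 had none because it never reached 5 FPKM. The points share their libraries, and the likeness is a description.

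The alleles were not equally represented. Over autosomal genes the median paternal share was 46.8% at the 8-cell stage and between 47.6% and 49.2% in the later columns to E6.5. Since the cross was made in 1 direction, a share away from even cannot be told apart between parent of origin and strain. RNA left from the oocyte and errors in read assignment cannot be told apart from these either. Among the pluripotency markers Pou5f1 had a paternal share of 0% in morulae (229 FPKM) and 0.116% in ICM (336 FPKM). Nanog had 55.2% in morulae and 44.3% in ICM. The source of such shares was not tested. A share is called skewed at 30% or less or at 70% or more, and 28.4% of autosomal genes were skewed at the 8-cell stage, 19.5% in morulae, 17.2% in ICM, 15.9% in TE, 14.2% in epiblast, 7.92% in VE and 9.22% in ExE.

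Dnmt1 was read mainly from the paternal allele in the 8-cell, morula and TE columns, at low levels, and was near even in ICM. Its paternal share was 81.0% at the 8-cell stage, 76.9% in morulae, 54.1% in ICM, 86.0% in TE, 54.3% in epiblast, 50.9% in VE and 51.2% in ExE. The 3 skewed columns were those with totals under 5 FPKM, and in TE the alleles had 3.02 (paternal) and 0.493 FPKM (maternal). Uhrf1 went the other way, with 42.9% in morulae, 42.4% in ICM, 29.6% in TE, 36.3% in epiblast, 40.7% in VE and 42.7% in ExE, all under 50%.

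Dnmt3l changed sides. Its paternal share was 53.9% at the 8-cell stage, 78.5% in morulae, 74.3% in ICM, 61.6% in TE, 36.7% in epiblast and 36.8% in ExE. The stage-table morula alleles had 24.5 (paternal) and 6.71 FPKM (maternal), and those of ExE 13.1 (paternal) and 22.5 FPKM (maternal). In the separate morula table the Dnmt3l share was 62.1% in KO females, 66.1% in control females and 61.2% in control males, none of them skewed. Dnmt3b had a share of 19.5% at the 8-cell stage, 31.5% in morulae, 34.7% in ICM, 41.4% in TE, 48.6% in epiblast, 39.3% in VE and 48.1% in ExE. All of these lay under 50%, with the lowest at the 8-cell stage, where its maternal allele had 3.34 of 4.14 FPKM.

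Dnmt3a ranged between 32.6% in morulae and 67.5% in ExE, with 47.1% in epiblast, the only column in which it reached 5 FPKM. Tet1 lay under 50% in all 7 columns, between 26.2% (8-cell) and 41.5% (epiblast). Tet2 was nearer to even, between 41.9% (8-cell) and 54.0% (ICM) in the 4 columns in which it could be measured. Tet3 could be measured in 4 columns, between 21.6% in TE and 52.3% in epiblast, at totals under 2 FPKM.

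Zfp57 had the most one-sided course over the stage columns. Its paternal share was 21.1% at the 8-cell stage, 19.3% in morulae, 18.5% in ICM, 9.38% in epiblast, 31.6% in VE and 12.8% in ExE, with TE under 1 FPKM. It was under 40% in all 6 columns, as were 134 of 5515 autosomal genes measured in the same columns (2.43%), a limit chosen after its values were seen. In the separate morula table the Zfp57 share was 41.3% in KO females, 34.9% in control females and 18.8% in control males. In ICM the alleles had 2.03 (paternal) and 8.95 FPKM (maternal). Dppa3 had a share of 30.8% at the 8-cell stage, 38.6% in morulae, 32.4% in ICM and 27.1% in TE, then 43.3% in epiblast and 72.7% in VE, where the total was 6.21 FPKM.

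Of the members that could be measured, 4 of 8 were skewed at the 8-cell stage (28.4% of autosomal genes), 3 of 9 in morulae (19.5%), 2 of 9 in ICM (17.2%), 4 of 9 in TE (15.9%), 1 of 9 in epiblast (14.2%), 1 of 8 in VE (7.92%) and 1 of 8 in ExE (9.22%). At a total of at least 5 FPKM, 0 of 3 were skewed at the 8-cell stage (18.3% of autosomal genes), 1 of 4 in morulae (Dnmt3l; 13%), 2 of 8 in ICM (Dnmt3l, Zfp57; 11%) and 2 of 5 in TE (Uhrf1, Dppa3; 9.92%). At E6.5 they were 0 of 7 in epiblast (8.69%), 1 of 5 in VE (Dppa3; 5.43%) and 1 of 5 in ExE (Zfp57; 7.49%). In the sparse yolk sac 3 of 4 were skewed (Uhrf1 and Tet1 low, Dnmt3a high), beside 62.2% of autosomal genes.

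**Figure D4:**
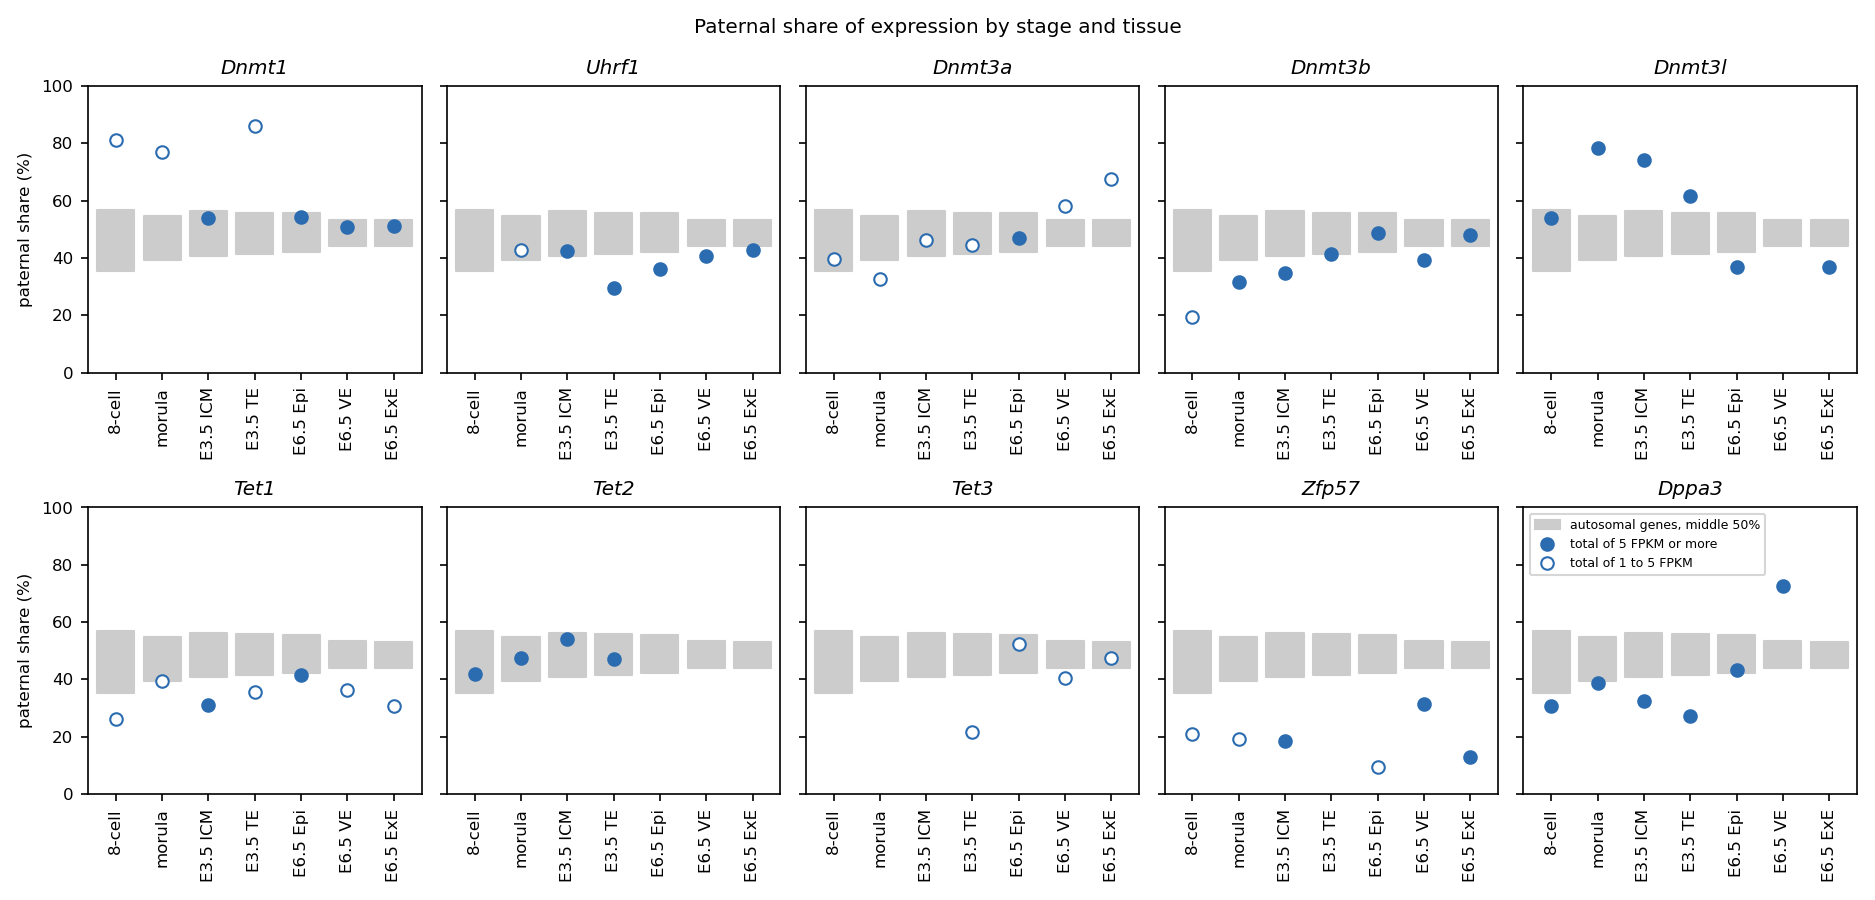
Paternal share (%) of the 10 genes by stage and tissue, filled where the total was 5 FPKM or more and open where it was 1 to 5 FPKM, with the middle 50% of autosomal genes in each column as grey bars. Zfp57 lies between 9.38% and 31.6%, and Dnmt3l lies at 78.5% in stage-table morulae and 36.8% in ExE. The separate morula table is not drawn.

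The deletion of XRRa on the paternal X was read in morulae. None of the 10 genes was past 2-fold in Xp XRRa KO females against control females, beside 7.80% of all genes, and 6 of them reached 5 FPKM in 1 of the 2 columns. None was past 2-fold against control males (11.2% of all genes) or between control females and control males (5.74%). With no spread between embryos, differences within 2-fold could not be judged.

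Uhrf1 had 8.95 FPKM in KO females, against 5.57 FPKM in control females and 5.95 FPKM in control males (log2 ratio KO over control females 0.60). The KO column was the highest for both alleles, with 4.33 (paternal) and 4.62 FPKM (maternal) in KO females against 1.93 and 3.65 FPKM in control females. Tet1 had 2.69 FPKM in KO females, against 1.05 FPKM in control females and 1.52 FPKM in control males (0.85). This was the largest ratio among the 10, in a gene under 5 FPKM, and it passed 2-fold when the columns were scaled to an equal, larger sum. That scaling also raised all values against the 5 FPKM filter and the pseudocount.

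Dnmt3l had 42.6 FPKM in KO females, against 63.0 FPKM in control females and 49.0 FPKM in control males (-0.55). The KO column was the lowest, but the control columns differed from each other as well. Dppa3 had 1767 FPKM in KO females, against 1753 FPKM in control females and 2015 FPKM in control males (0.01). Dnmt3b had 5.52 FPKM in KO females, against 5.87 FPKM in control females and 5.88 FPKM in control males (-0.07). These 2 genes were within 1.2-fold in all 3 columns.

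Tet2 had 11 FPKM in KO females, against 8.82 FPKM in control females and 11.9 FPKM in control males (0.28). Zfp57 had 6.5 FPKM in KO females, against 5.82 FPKM in control females and 5.56 FPKM in control males (0.14). The KO value lay between the control values for Tet2 and above both of them for Zfp57. Dnmt1 had 2.54 FPKM in KO females, against 2.89 FPKM in control females and 3.48 FPKM in control males (-0.13), and Dnmt3a and Tet3 were under 1 FPKM in all 3 columns.

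Dnmt3l made up 86.9% of the Dnmt3 sum in KO females, against 90.8% in control females and 87.8% in control males, and Tet2 79.6% of the Tet sum in KO females, against 88.3% in control females and 86.8% in control males. The leading gene of each family was thus the same in the 3 columns. In the separately normalized stage table, morulae had 15.0 FPKM of Dnmt3b. Against that column Dnmt3b was past 2-fold lower in KO females (-1.30) and in control females (-1.22), beside 16.1% and 29.3% of all genes; after centring control females were at -0.89. Summed TE markers were 397 FPKM in KO females, against 646 FPKM in control females and 1235 FPKM in control males. The keratins Krt8 and Krt18 made up most of each sum. They had 137 and 140 FPKM in KO females, against 182 and 367 FPKM in control females. Cdx2 and Eomes were also lower in KO females than in control females. Gata3 (68.9 against 51.6 FPKM) and Tfap2c (45.3 against 35.1 FPKM) were higher. The part of TE markers in the values above was not tested.

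Paternal shares were compared over the 8 genes measured in both female columns. For autosomal genes the middle 50% of differences, KO minus control females, ran between -6.62 and 7.27 points and the middle 80% between -15.8 and 16.8. Uhrf1 had the largest difference, 13.8 points, with 48.4% in KO females against 34.6% in control females. Tet2 had 50.2% in KO females against 40.5% in control females (9.75 points), and Dnmt1 56.2% against 65.4% (-9.13 points). All 8 lay inside the middle 80% of autosomal genes. Against control males that band ran between -14.5 and 15.6 points, and Dnmt1 (-26.2 points) and Zfp57 (22.5 points) lay outside it.

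Shares also differed between the controls. Dnmt1 had 65.4% in control females against 82.4% in control males, and Zfp57 34.9% in control females against 18.8% in control males, with 41.3% in KO females. The middle 80% of autosomal genes ran between -16.2 and 17.5 points for control females minus control males, with Dnmt1 at -17.0 points just outside it and Zfp57 at 16.1 points inside it. The Dppa3 share was 30.3% in KO females, against 34.2% in control females and 23.2% in control males. Skewed shares were found for 1 of 8 genes in KO females (Dnmt3b, 27.6%), beside 18.7% of autosomal genes, for 0 of 8 in control females, beside 23.3%, and for 3 of 8 in control males (Dnmt1, Zfp57, Dppa3), beside 19.6%. The partner lists held 9 genes for maintenance, 7 for imprint protection, 7 for proteins that bind methylated CpG and 19 for repair and Tet partners. They also held 9 methyl donor enzymes, 8 de novo regulators and 16 germline genes. Some of these genes were under 5 FPKM in both female columns and could not be called. Of the partner lists, 1 gene was past 2-fold in KO females against control females, beside 7.80% of all genes at 5 FPKM. This was the histone methyltransferase Ehmt1, with 6.27 FPKM in KO females against 2.48 FPKM in control females (log2 ratio 1.06). Ehmt1 had 2.83 FPKM in control males and 7.05 FPKM in the separately normalized stage-table morulae. Why its KO value lay above both control values was not tested.

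**Figure D5:**
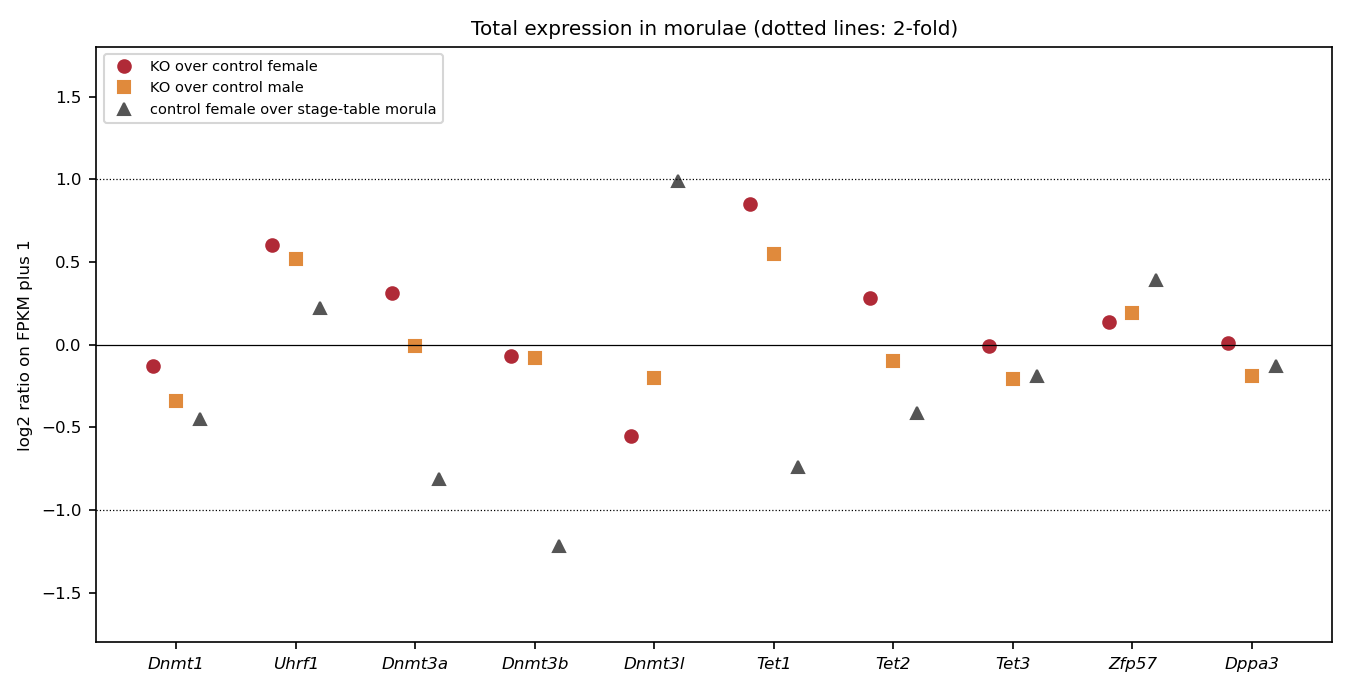
Log2 ratios on FPKM plus 1 of the 10 genes in morulae: KO females over control females, KO females over control males, and control females over the separately normalized stage-table morulae, with dotted lines at 2-fold. All ratios of KO females lie within 2-fold, and Dnmt3b is at -1.22 in control females over stage-table morulae.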

How the data were processed

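Polyadenylated RNA was made into Smart-seq2 libraries, per the labels' protocols. Per the file headers and the series text, the authors deposited FPKM for each allele, with 1 pooled column per allele and group. Trim Galore 0.6.4, HISAT2 2.2.0, StringTie 2.1.1 and the genome build mm9 are named in the submitters' processing notes. The assignment of reads to alleles is not given in the sources used here. Each of the 2 tables had its own normalization, and 5 summary lines of the stage table were left out. Replicates are not stated to come from separate litters, and no SD, interval or test could be computed from pooled columns; the epiblast and yolk sac columns stand for 1 sample each.

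Totals, paternal shares, log2 ratios (pseudocount 1 FPKM), family fractions and likeness were computed over all genes with Python 3.11.15, numpy 2.4.6 and pandas 2.3.3, figures with matplotlib 3.10.9, and the scripts were tested on simulated data. The 10 genes and all gene lists were chosen with earlier results of these data known. All 10 genes are named. From each other list at most 4 genes past the size rule are named per comparison, largest log2 ratio first, and 3 most-like genes per member. Tdg, Tex19.1 and other values named outside this rule were chosen after they were seen. Alternatives changed the pseudocount, the filter, the scaling and centring, the minimum total for shares and the allele.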

Additional observations from a re-analysis of the deposited data

How the results depend on the processing

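Of 103 counts and summaries recomputed under other settings 87 stayed within 1.5 times, and of 294 single ratios 275 did not change their call; none reversed. Members past 2-fold in morula against 8-cell were 4 in place of 2 with a filter of 1 FPKM, with none, and with columns scaled to an equal, larger sum. Each of these settings added Dnmt1 and Uhrf1, and the scaling also raised all values against the filter and the pseudocount. With a pseudocount of 5 FPKM, extraembryonic ectoderm against epiblast gave 3 in place of 5, and visceral endoderm against epiblast 3 in place of 5. Visceral endoderm against extraembryonic ectoderm gave 2 in place of 4 when ratios were centred or columns scaled. In KO against control females 1 in place of 0 was past 2-fold with scaled columns (Tet1), and 1 with stage-table morulae as the reference (Dnmt3b). Skewed shares at a total of at least 5 FPKM numbered 0 in place of 4 in 8-cell embryos, 1 in place of 3 in morulae, 2 in place of 4 in trophectoderm and 0 in place of 1 in epiblast; at 0.1 FPKM they numbered 2 in place of 1 in extraembryonic ectoderm (Zfp57, Dppa3). With the maternal allele only, Dnmt3b led in 5 stage columns in place of 3 and Dnmt3l in 2 in place of 4. The cause of these moves was not tested. Leaving out replicates was not run, since the columns are pooled. No paired analysis was possible because the pooled columns carry no replicate numbers. Depth is unknown, and levels under 5 FPKM are the least certain.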
